A study of Mus musculus with 2 samples.

Results

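The 100 cells described here are those of the WTg library, made from pancreatic tumours, with the highest mean level of 7 genes. Most of these are genes of the exocrine pancreas. Whether a given cell was transformed was not tested. They were chosen by a score, the mean over Ctrl, Cela3b, Pnlip, Rnase1, Aqp12, Wfdc10 and Ptgds of log(1 + UMIs per 10,000), where a UMI is 1 counted RNA molecule. The ranking was made among the 748 WTg cells that had 500 or more genes and 5000 or more UMIs, of which mitochondrial genes made up 20% or less. The other 648 WTg cells served for comparison. Single-cell RNA was measured with the 10x Genomics 3′ kit in 2 libraries, 1 per genotype, from pancreatic tumours of mice aged 6 weeks.

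EL1 mice (EL1-Luc/EL1-TAg) carry the SV40 large T antigen and firefly luciferase, each under a rodent elastase I promoter, which is active in acinar cells. WTg mice (EL1-Luc/EL1-Tag x CAG-Mettl3) carry both of these and the coding frame of Mettl3 driven by CAG, a promoter active in most tissues. Both genotypes thus express the oncogene, and neither is a normal pancreas. EL1 mice are on FVB/N and the Mettl3 mice were made in C57BL/6 eggs, so genetic background and the Mettl3 transgene cannot be told apart. How many animals went into a library, and of which sex, was not given. With 1 library per genotype there was no test, and all intervals below are 95% intervals that cover counting error alone.

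Acinar cells make the digestive enzymes of the pancreas. Proteases are stored as inactive zymogens in granules together with lipases, amylase, ribonuclease and protective juice proteins, and are released when cholecystokinin or acetylcholine binds its receptor. The enzyme genes are switched on together by the PTF1 complex, in which Ptf1a pairs with an E protein on a CACCTG motif and Rbpjl on a neighbouring one. Of the genes of the score, Ctrl (chymotrypsin-like protease) and Cela3b (chymotrypsin-like elastase) encode zymogens, Pnlip is pancreatic triglyceride lipase and Rnase1 the secreted ribonuclease. Aqp12 is an aquaporin of acinar cells, Wfdc10 belongs to the whey acidic protein family of protease inhibitors, and Ptgds is prostaglandin D2 synthase.

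Upstream sequences are shown for the genes of the score whose window held CACCTG, and for Cela3a, the close copy of Cela3b, to set the shared motif of the enzyme genes beside their unequal levels below. They are from RefSeq (GRCm38.p6), 5′ to 3′ on the strand of the gene, with the motif or its reverse complement CAGGTG in capitals. Each ends at the annotated start of its gene. The stretch of Ctrl is chr8:105933863-105933992 (minus strand), that of Cela3b chr4:137430541-137430650 (minus), that of Cela3a chr4:137409792-137409921 (minus) and that of Aqp12 chr1:93006204-93006333 (plus).
Ctrl: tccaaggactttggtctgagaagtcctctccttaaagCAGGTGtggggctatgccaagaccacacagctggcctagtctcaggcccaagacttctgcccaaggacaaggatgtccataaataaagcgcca
Cela3b: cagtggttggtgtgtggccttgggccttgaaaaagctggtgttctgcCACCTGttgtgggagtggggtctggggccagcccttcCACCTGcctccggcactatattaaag
Cela3a: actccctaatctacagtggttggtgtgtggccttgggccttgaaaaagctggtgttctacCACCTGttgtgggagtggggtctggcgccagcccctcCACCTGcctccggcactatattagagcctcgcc
Aqp12: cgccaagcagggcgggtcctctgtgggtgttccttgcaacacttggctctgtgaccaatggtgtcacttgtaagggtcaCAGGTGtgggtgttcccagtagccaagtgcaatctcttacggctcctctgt

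Within the 250 bases before the start, CACCTG on either strand was present in 3 of the 7 genes of the score and absent from the windows of Pnlip, Rnase1, Wfdc10 and Ptgds. It was present in 15 of 25 other enzyme genes with a window (60.0%), against 17.2% of all 32851 windows. The 25 include trypsinogen genes that are near-identical copies, so they do not count as separate cases. Of genes at least 2-fold higher in the 100 cells 21.7% had the motif, and of those lower 21.3%, against 18.1% of all genes tested. Enzyme genes that were higher and lower in the 100 cells both carried it, among them Prss2 and Prss1. Ctrc and Clps were not among the windows.

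The score declined with rank without a step at the limit. The highest score was 2.63, the fiftieth 1.43, the hundredth 1.10 and the lowest of all 0. The last cell inside scored 1.096 and the first outside 1.091. A total of 19 of the 100 cells lay within 0.1 above the limit and 27 other cells within 0.1 below it, so the limit cuts a continuous range of scores. Whether the cells are a separate type cannot be read from the score that chose them. In EL1 the highest score was 1.19 and only 4 of 975 cells reached the WTg limit. The median score was 0.563 in WTg and 0.0973 in EL1.

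**Figure D1:**
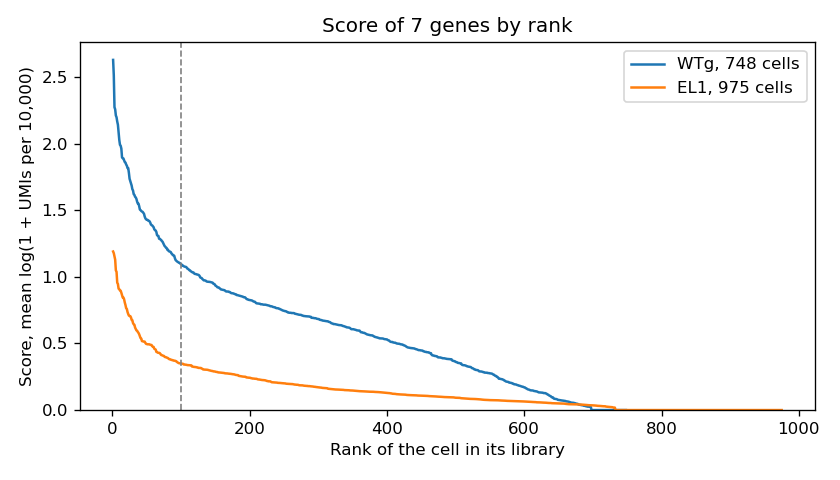
Score of each cell (y axis, mean log(1 + UMIs per 10,000) of the 7 genes) against its rank in its library (x axis), with the limit of 100 cells as a dashed line. The WTg line passes the limit without a step and lies above the EL1 line over the first 100 ranks.

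Depth overlapped widely. The high-scoring cells had a median of 34941 UMIs (5225 to 151124) and the other WTg cells 39814 (5060 to 188511), and the correlation of the score with log total UMIs was 0.04 over the 100 cells. They expressed a median of 4572 genes against 5579, and mitochondrial UMIs took 3.57% against 3.94%. A total of 15 barcodes occurred in both libraries, none of them a high-scoring cell, and a doublet caller marked 7 of the 748 cells and none of the 100. Mettl3, the m6A methyltransferase, was counted as a single gene, so RNA of the transgene and of the mouse's own copy cannot be told apart. It stood at 63.7 CPM (UMIs per 1000000, 56.1 to 72.1) in the high-scoring cells and 66.0 (63.0 to 69.0) in the others. The order of these values turned with the scaling (log2 ratio -0.05, or 0.29 with enzyme and granule genes out of the totals). In EL1 Mettl3 was at 15.8 CPM (12.3 to 19.9) in the 100 highest-scoring cells and 14.8 (13.5 to 16.2) in the rest.

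Other cell types left little signal in the high-scoring cells. The median cell held 0 CPM summed over 10 leukocyte, 5 endothelial, 5 fibroblast or 5 red cell markers, as did the median of the other WTg cells. A UMI of these 4 lists was found in 16, 4, 4 and 14 of the 100 cells. Among the 648 others it was found in 163, 46, 13 and 176. None of the 6 islet hormone genes had a UMI in the high-scoring cells. No high-scoring cell carried 5 or more leukocyte markers, whereas 42 of the other WTg cells did. These 42 leukocyte-marker barcodes (median depth 21036 UMIs) served as cells that should lack acinar RNA. Acinar markers were present throughout: Prss2, Ctrb1, Cela2a, Cpa1, Cpb1 and Clps had a UMI in 100 of 100 cells. Presence alone does not set these cells apart. Zymogen proteases outside the score had a UMI in all 648 other WTg cells, the 42 leukocyte-marker barcodes included. Their median sum per cell was 238746 CPM in the high-scoring cells, 151566 in the others and 1273 in the leukocyte-marker barcodes.

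The 7 genes of the score chose the cells, so their values are a description. Cela3b dominated: it had a UMI in 100 of 100 high-scoring cells and in 583 of 648 others, and was the largest term of the score in 91 of the 100. Its level per cell ran from 6.59 to 506 UMIs per 10,000 with a median of 96.0, against a median of 8.38 (0 to 262) in the other cells. The ranges overlap, and the sums were 13244 CPM (13130 to 13358) and 1935 CPM (1919 to 1951). In the leukocyte-marker barcodes 11 of 42 (26.2%) had a Cela3b UMI, at 13.4 CPM.

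Ctrl was more uneven. It was detected in 68 of the 100 cells and 69 of 648 others, with a median of 1.35 and a highest cell at 156 UMIs per 10,000. The 10 cells with the most Ctrl held 62.5% of its UMIs. Its sum was 1622 CPM (1583 to 1663) against 19.6 (18.0 to 21.3), and a single other cell held 42.5% of the UMIs outside. After thinning every cell to 5000 UMIs, Ctrl was seen in 51% of high-scoring cells (40.8 to 61.1) and 2.78% of the others (1.65 to 4.35). In the leukocyte-marker barcodes it had 1 UMI in all, and none after thinning, a count of 0 that allows up to 7.14%.

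Rnase1 was found in 98 of the 100 cells and 437 others, at a median of 9.39 and 0.694 UMIs per 10,000. It summed to 1112 CPM (1079 to 1145) against 214 (208 to 219). Aqp12 was found in 79 and 232 cells and summed to 151 CPM (139 to 164) against 28.3 (26.4 to 30.3). Neither gene, nor Pnlip, Wfdc10 or Ptgds, had a UMI in the leukocyte-marker barcodes.

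Pnlip, the enzyme most used as a sign of fat digestion, was sparse. It had a UMI in 57 of the 100 cells and 145 others, and its sum was 131 CPM (120 to 143) against 9.55 (8.45 to 10.7). Wfdc10 was found in 49 and 86 cells, at 167 CPM (155 to 181) against 10.7. Ptgds was found in 34 and 46 cells, at 124 CPM (113 to 136) against 5.71 (4.87 to 6.66), but 1 cell held 28.8% of the UMIs of the 100 cells and the top 10 held 87.3%. Only 4 of the 100 cells had a UMI for all 7 genes, and the median was 5 of 7.

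**Figure D2:**
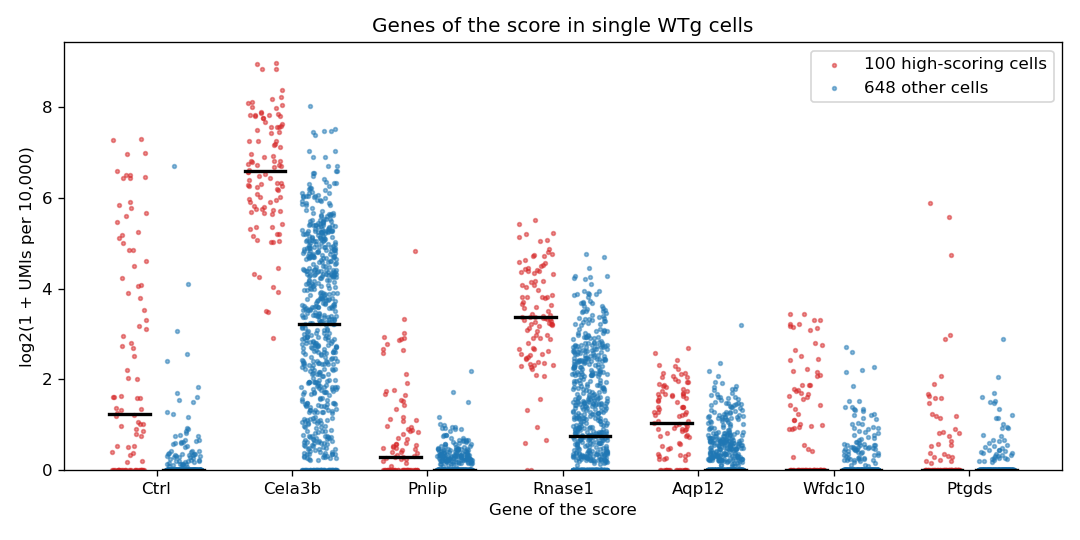
Level of each gene of the score per WTg cell (y axis, log2(1 + UMIs per 10,000)) in the 100 high-scoring cells (red) and the 648 other cells (blue), with the median of each group as a black bar. Cela3b and Rnase1 are shifted as a whole, while Ctrl, Pnlip, Wfdc10 and Ptgds are high in some of the 100 cells and absent from others.

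The rest of the transcriptome was compared for genes with at least 100 UMIs over the 748 cells and a UMI in at least 20 of them. Of 10699 such genes outside the score, 133 (1.24%) were at least 2-fold higher in the high-scoring cells and 1589 (14.9%) at least 2-fold lower. The median log2 ratio of all genes was -0.40, and it was -0.06 once enzyme and granule genes were left out of the totals, so list values below are to be read against these. With enzyme and granule genes left out of the totals the counts were 240 higher and 991 lower, and with TMM scaling 260 and 939. The other WTg cells included the leukocyte-marker barcodes, and without them the counts were 140 and 1277.

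Digestive enzymes took more of the RNA but not evenly. The enzyme lists made up a median of 32.5% of the UMIs of a high-scoring cell (10.5% to 67.0%), against 18.7% (0.0271% to 72.9%) in the other WTg cells. Without the genes of the score the medians were 31.1% and 18.6%. Of 28 other enzyme genes tested, 8 were at least 2-fold higher and 5 at least 2-fold lower. Of all genes 1.24% were higher and 14.9% lower, the background for the counts of each list below. The count of 5 lower was near that share.

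Among the zymogen proteases, 6 of 18 were at least 2-fold higher, 4 at least 2-fold lower, and the list median was 0.65. The trypsinogen gene 2210010C04Rik had the highest ratio of the list, at 6902 against 923 CPM (log2 ratio 2.90, 2.88 to 2.93). Ctrc, chymotrypsin C, followed at 2.66 (2.19 to 3.13) with 73 and 84 UMIs. Ctrc overlaps Ctrcos on the other strand, its annotated span also covers that of Cela2a, and whether counting used the strand was not stated. Cela3a stood at 59.9 against 12.7 CPM (2.24, 1.99 to 2.48), and the main anionic trypsinogen Prss2 at 29675 against 13388 CPM (1.15, 1.14 to 1.16).

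Other trypsinogens went the opposite way. Prss1 was at 506 CPM in the high-scoring cells and 5942 in the others (log2 ratio -3.55, -3.62 to -3.49), although 77 of the 100 cells had a UMI. Gm5771 was at 188 against 982 CPM (-2.39, -2.49 to -2.28) and Try10 at 925 against 3253 (-1.81, -1.86 to -1.77). The trypsinogens are near-identical copies on chromosome 6, so how UMIs were divided among them is uncertain.

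In the list of lipases, amylases and ribonucleases 2 of 10 were at least 2-fold higher and 1 lower, with a median of -0.18. Clps, the colipase that anchors pancreatic lipase on fat droplets, stood at 36687 against 13079 CPM (1.49, 1.48 to 1.50), and the phospholipase Pla2g1b at 320 against 147 (1.12, 1.03 to 1.22). Pnliprp2, a lipase related to Pnlip, was lower at 84.8 against 245 CPM (-1.53, -1.70 to -1.37). The amylase Amy2a3 had a ratio of -0.32 (-0.58 to -0.07), which became 0.02 with enzyme and granule genes left out of the totals.

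The granule and juice proteins had 2 of 14 at least 2-fold higher, none lower and a median of 0.47. Reg2, a secreted lectin, was at 94.7 against 24.5 CPM (1.95, 1.76 to 2.13), in 22 of the 100 cells, and Reg3g at 121 against 42.1 (1.52, 1.37 to 1.68). Dmbt1 (-0.10) and Sycn, which coats granules (-0.18), were near equal, and both ratios turned positive (0.24 and 0.16) with enzyme and granule genes left out of the totals. With enzyme and granule genes left out of the totals, 9 zymogen proteases, 3 lipase-list genes and 5 granule genes passed 2-fold higher.

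The acinar transcription factors were close to the background of all genes. None of 14 was at least 2-fold higher and 2 were lower, against 1.24% and 14.9% of all genes, and the list median was -0.45 against -0.40. Ptf1a stood at 28.9 against 31.7 CPM (log2 ratio -0.13, -0.43 to 0.15), Rbpjl at 118 against 136 (-0.21, -0.35 to -0.07) and Nr5a2 at 23.9 against 22.1 (0.11, -0.22 to 0.43). Bhlha15, which acts late in granule formation, was at 55.6 against 97.3 CPM (-0.81, -1.01 to -0.61). Gata6 had the lowest ratio (-2.23, -3.20 to -1.41). With enzyme and granule genes left out of the totals, Ptf1a (0.21) and Rbpjl (0.13) turned positive, and Gata6 alone was past 2-fold. The cells are called high-scoring here, not differentiated, since the list does not set them apart from the other WTg cells.

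Receptors and secretory machinery held no gene past 2-fold higher, a count near what the 1.24% of all genes gives. Of 13 genes for secretagogue receptors and calcium handling none was 2-fold higher and 5 were lower, against 14.9% of all genes. The cholecystokinin receptor Cckar stood at 178 against 130 CPM (0.46, 0.34 to 0.58), and Cckbr had 1 UMI against 136. Of 19 exocytosis genes none was higher and 7 lower, with Rab27b at 0.13 (-0.24 to 0.49) and Snap25, of neurosecretory vesicles, at -2.16 (-2.36 to -1.98). With enzyme and granule genes left out of the totals, 3 genes of each list were lower.

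The protein-making apparatus was close to the other cells. Of 35 ER translocation and folding genes none passed 2-fold in either direction, and the highest was Pdia2, the pancreatic disulfide isomerase, at 1573 against 960 CPM (0.71, 0.67 to 0.75), past 2-fold with enzyme and granule genes left out of the totals (1.06). None of 14 unfolded protein response targets and none of 20 tRNA synthetases passed 2-fold. In amino acid supply 2 of 19 were higher, the transporters Slc38a5 (1.14, 0.91 to 1.36) and Slc7a11 (1.11, 0.79 to 1.42), and Gnmt, a glycine methyltransferase, was lower (-1.71, -2.19 to -1.27). None of 15 genes of the m6A machinery passed 2-fold.

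Genes of cell division were lower. Of 52 G2/M genes 35 were at least 2-fold lower and none higher, with a median of -1.21, against 14.9% of all genes. The spindle gene Gas2l3 had the lowest ratio, at 2.03 against 15.7 CPM (-2.95, -4.17 to -1.96), and Cks1b the highest (-0.21, -0.42 to -0.00326), with 0.14 when enzyme and granule genes were left out of the totals. Plk1, the mitotic kinase, had 8 UMIs in 5 of the 100 cells, 2.03 against 7.42 CPM (-1.87, -3.10 to -0.865). The difference lay in few cells: 6 of 100 (6.00%, 2.23 to 12.6) reached 5000 CPM over the G2/M list, against 99 of 648 (15.3%, 12.6 to 18.3). Mki67, a proliferation marker, was found in 35 of 100 and 295 of 648 cells, and in 20% and 22.8% after thinning. Top2a, the topoisomerase of dividing cells, was found in 27 of 100 and 299 of 648 cells, and in 12% and 25.8% after thinning. The G2/M sum had a median per cell of 783 CPM in the high-scoring cells and 1103 in the other WTg cells. It was 877 in the Sycn and Dmbt1 cells and 1008 in the leukocyte-marker barcodes. Of 43 S phase genes 3 were lower and none higher, with a median of -0.29, and none was lower with enzyme and granule genes out of the totals. The G2/M count was 16 when the score was made without Cela3b, 21 without Aqp12 and 22 with either other scaling.

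Neuroendocrine genes were the lowest of the epithelial lists, with 10 of 12 at least 2-fold lower and a median of -2.59. The granule protein Chga was at 299 against 2391 CPM (-3.00, -3.08 to -2.91), and the proconvertase Pcsk2 at 3.05 against 39.5 (-3.70, -4.66 to -2.89). Penk, proenkephalin, was the exception at 25.9 against 13.3 CPM (0.96, 0.63 to 1.28). In the ductal list 1 of 15 was higher and 4 lower, against 1.24% and 14.9% of all genes. Spp1, osteopontin, stood at 618 against 46.0 CPM (3.75, 3.65 to 3.85), but only 44 of the 100 cells had a UMI and the top 10 held 72.9% of them. Its ratio ran from 3.02 with Wfdc10 left out of the score to 4.80 with Cela3b left out. In the same list the adhesion protein Epcam was at 98.7 against 567 (-2.52, -2.67 to -2.38) and keratin Krt7 at 5.58 against 22.8 (-2.03, -2.71 to -1.42).

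Stress lists held few genes past 2-fold, and their lower counts are to be read against 14.9% of all genes. Of 12 heat shock genes 3 were lower, with Hspa1b at 1.52 against 30.1 CPM (-4.30, -5.75 to -3.18) and Hspa1a at 3.81 against 35.2 (-3.21, -4.05 to -2.48). In 100 other WTg cells chosen for Sycn and Dmbt1, described below, Hspa1b stood at 1.89 CPM, and none of 10 heat shock genes passed 2-fold between those and the high-scoring cells. Of 18 immediate early genes none was higher and 2 lower, Dusp1 (-2.20, -2.61 to -1.81) and Fos (-1.20, -1.35 to -1.06). Against the Sycn and Dmbt1 cells Fos had a ratio of 0.22 and Dusp1 -1.87. None of 13 p53 targets passed 2-fold.

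**Figure D3:**
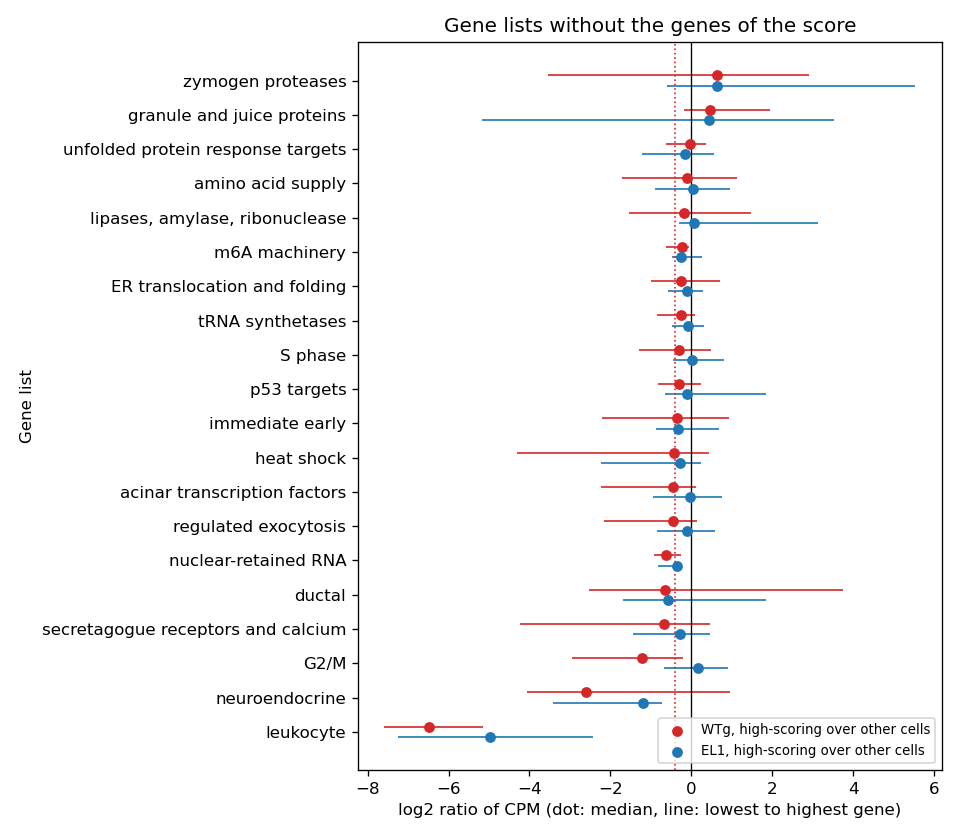
Gene lists by log2 ratio of CPM (x axis), high-scoring over other cells, in WTg (red) and EL1 (blue), without the genes of the score. Dots are list medians, lines run from the lowest to the highest gene, and the dotted line is the WTg median of all genes. The G2/M median is -1.21 in WTg and 0.17 in EL1. The 100 highest-scoring EL1 cells had a median score of 0.495, against 1.43 in the WTg 100.

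Among genes outside the score that have a name other than a predicted-gene or Rik name, the 12 highest ratios belonged to Wfdc9, Spp1, Eppin, C4b, Kng2, Bdh2, Moxd1, Amhr2, Hs6st2, Serpina7, Xlr and Ctrc, with log2 ratios from 2.66 to 4.27. Wfdc9 was the first of these, at 85 UMIs against 32. It overlaps Wfdc10 by 538 bases on the opposite strand and followed it closely over the 100 cells (Pearson's r 0.63), so the 2 cannot be told apart here if reads were counted without strand. Eppin, a protease inhibitor with a whey acidic protein domain, had 60 UMIs in 32 cells (3.38, 2.79 to 3.98). C4b, complement component 4, stood at 99.5 against 10.1 CPM (3.29, 3.07 to 3.52) and kininogen Kng2 at 25.4 against 2.61 (3.28, 2.83 to 3.73). Amhr2, the anti-Müllerian hormone receptor, had 83 UMIs in 41 of 100 cells and 77 in 40 of 648 (2.97, 2.51 to 3.44).

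The 12 lowest ratios of such genes were those of C1qc, Sparc, Fabp4, H2-Aa, Igfbp7, Laptm5, Cd74, Ifitm3, Vcam1, Srgn, Serpina1b and Cd52, each with 0 to 3 UMIs in the high-scoring cells and log2 ratios from -8.99 to -6.80. Most are genes of macrophages, other leukocytes or vessels, and the other cells hold the leukocyte-marker barcodes. Serpina1b, an antitrypsin gene, is the one with a different known source and had 2 UMIs against 1773 (-6.93, -9.97 to -5.07). The related Serpina1d, named after its values were seen, had 0 UMIs against 1238, a log2 ratio of -5.82 or lower by a floor of 3 counts over the group.

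As a second comparison, 100 other WTg cells with the highest mean level of Sycn and Dmbt1, which code for granule proteins, were taken, and those 2 genes are not compared. In the clustering below only 5 of these cells fell into the 2 clusters that held most of the high-scoring cells. Of 6368 genes tested, 131 (2.06%) were at least 2-fold higher in the high-scoring cells and 209 (3.28%) lower. Ctrl had 19 UMIs in 6 of the comparison cells (3.99 CPM), Cela3b stood at 2799 CPM and Rnase1 at 402. Enzymes took a median of 26.6% of the UMIs of the comparison cells. Clps (1.56), 2210010C04Rik (2.25), Cela3a (2.43) and Spp1 (5.74, 5.36 to 6.15) were higher in the high-scoring cells, and Prss1 (-4.37), Pnliprp2 (-2.24), Klk1 (-2.34) and Epcam (-2.34) were lower. Ptf1a was 28.9 against 10.9 CPM (1.41, 0.92 to 1.91), the one acinar transcription factor past 2-fold higher, and Bhlha15 was lower (-1.11, -1.35 to -0.89). Of 33 G2/M genes 6 were lower.

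The same score was applied to EL1. Its 100 highest-scoring cells had a median score of 0.495 (0.349 to 1.19), against 1.43 in the WTg 100 and 0.563 in all WTg cells. The 2 sets of 100 are thus not alike in score. The EL1 100 had a median of 32747 UMIs and enzymes took 19.0% of them, against 11.9% in the remaining 875. Of 10997 genes, 180 (1.64%) were at least 2-fold higher and 637 (5.79%) lower. Ctrl reached 114 CPM in 14 of the 100 EL1 cells, and Cela3b 1669 CPM in 94. Higher in EL1 as in WTg were 2210010C04Rik (5.54), Kng2 (2.50, 2.28 to 2.72) and Spp1 (1.85, 1.67 to 2.03). Klk1, a kallikrein protease (2.67, 2.64 to 2.69), and Dmbt1 (3.53, 3.45 to 3.62) were higher in EL1, whereas in WTg Klk1 had -0.90 and Dmbt1 -0.10. Of 53 G2/M genes none passed 2-fold in EL1, with a median of 0.17. No test of the difference between the 2 libraries was possible.

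The 100 cells did not form one group. Clustering of the 748 cells without the 7 genes put 48 of them in a cluster of 87 cells led by 2210010C04Rik, Prss2 and Cela2a, and 25 in a cluster of 51 cells led by Serpina6, Spp1 and Cpb1. The other 27 were spread over 7 of the 13 clusters, up to 9 in one. Wfdc10 had a UMI in 18 of the 48 and in 23 of the 25. It is a gene of the score that chose these cells, so this contrast is in part fixed by the choice. In the cells of these clusters outside the 100, Wfdc10 stood at 26.0 CPM in the larger and 53.6 in the smaller. Both clusters are led by acinar genes and are left unnamed.

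Among the 100 cells the genes of the score were unevenly spread. Since the cells were chosen on the sum of these genes, a cell high in one needs less of another, and negative correlations among them follow in part from the choice. Wfdc10 was lower where Cela3b (Pearson's r -0.52) and Aqp12 (-0.47) were high, and followed Pnlip (0.46) and Ctrl (0.29). Ctrl and Pnlip went together (0.44), and Cela3b went with Aqp12 (0.35) and Ptgds (0.31). The 5 other genes whose level most followed the score were Psmb10 (Spearman's rho 0.45), Penk (0.41), Cst3 (0.40), Spink1 (0.40) and Lgals1 (0.39). They are the highest of all genes searched outside the score, so their values are raised by that choice. Whether they exceed what such a search gives by chance was not tested. Psmb10, an immunoproteasome subunit, starts upstream of Ctrl on the same strand of chromosome 8 with 1872 bases between them, and its level followed Ctrl at r 0.65. All these points share 1 library and their total UMIs.

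**Figure D4:**
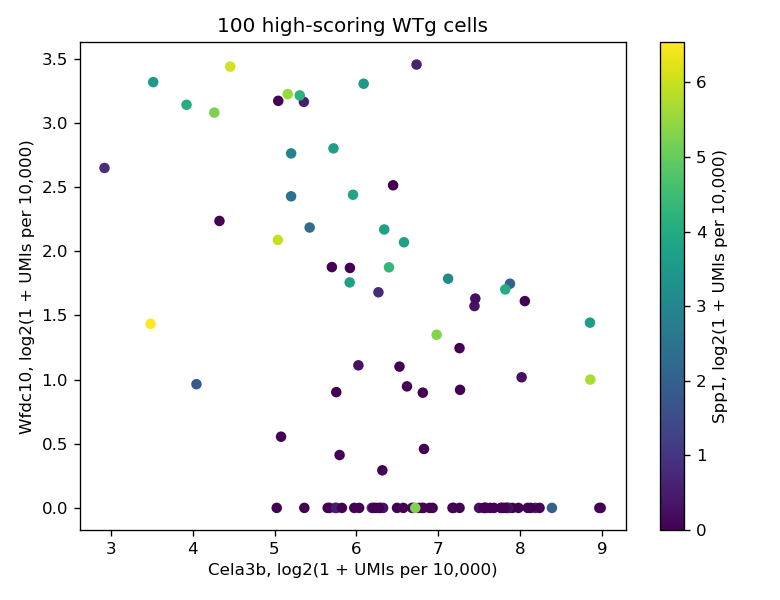
Wfdc10 (y axis) against Cela3b (x axis), both as log2(1 + UMIs per 10,000), in the 100 high-scoring cells, coloured by Spp1 on the same scale. Both axes are genes that chose the cells, so their r of -0.52 is in part fixed by the choice; Spp1, which is no gene of the score, followed Wfdc10 at r 0.59, and 51 cells lie at 0 for Wfdc10.

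The cells were split by Wfdc10, a split chosen after its values were seen, into 49 with and 51 without a UMI. Their median depths were 37445 and 31170 UMIs. Of 3730 genes outside the score, 68 (1.82%) were at least 2-fold higher with Wfdc10 and 31 (0.831%) lower. Higher were Kng2 (97 against 3 UMIs, log2 ratio 5.04, 3.45 to 7.35), the transglutaminase Tgm2 (2.89, 2.21 to 3.64), Spp1 (1086 against 159 CPM, 2.77, 2.60 to 2.95) and the keratin Krt19 (1.39, 0.81 to 2.00). Lower were Penk (-2.19, -3.02 to -1.45), the trypsinogen Try4 (526 against 2279 CPM, -2.12, -2.21 to -2.02), Reg2 (-1.96, -2.35 to -1.59) and Prss2 (16368 against 42719 CPM, -1.38, -1.40 to -1.37). Since Wfdc10 is a gene of the score, cells without it reached the limit through the other score genes. Among other WTg cells without leukocyte markers, the same ratio was 2.60 for Kng2, 2.88 for Spp1 and 0.52 for Tgm2. There it was -0.12 for Penk, 0.92 for Try4, 0.55 for Reg2 and -0.01 for Prss2.

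Many enzymes did not take part in this split. Cela2a (0.01, -0.01 to 0.02), Ctrb1 (0.02, 0.00242 to 0.03) and Reg1 (0.03, 0.01 to 0.04) were nearly equal, and so was Cpa1 at 25716 against 24535 CPM. Mettl3 was at 83.1 CPM (70.8 to 96.9) with Wfdc10 and 44.7 (35.9 to 55.0) without, a log2 ratio of 0.89 (0.51 to 1.28). In the 606 other WTg cells without leukocyte markers Mettl3 stood at 56.5 CPM (49.9 to 63.8) with and 69.9 (66.5 to 73.4) without Wfdc10, in the opposite order.

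Genes of 4 chromosomes stood apart in this split. With enzyme, granule and score genes left out and the median of all genes set to 0, the median log2 ratio was 0.29 on chromosome 1 (194 of 230 genes above 0), 0.29 on chromosome 3 (176 of 209), 0.29 on chromosome 11 (249 of 306) and 0.45 on chromosome X (110 of 122). The other 16 chromosomes lay between -0.15 and 0.06. With the 24 cells that had at least 10 Wfdc10 UMIs the 4 medians were 0.37, 0.36, 0.36 and 0.56. In other WTg cells without leukocyte markers (86 with and 520 without Wfdc10) they were 0.02, 0.04, 0.03 and 0.13, and in EL1 cells (75 and 873) 0.01, 0.04, 0.07 and -0.04. In EL1 the medians farthest from 0 were those of chromosomes 15 (-0.22, 118 of 421 genes above 0) and 5 (-0.13, 268 of 746).

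**Figure D5:**
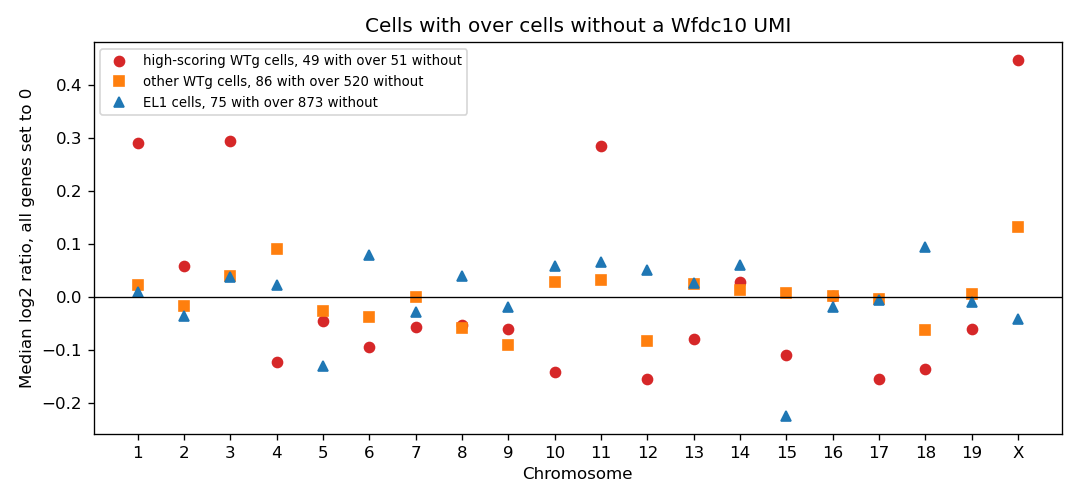
Median log2 ratio of genes by chromosome (y axis, median of all genes set to 0) for cells with over cells without a Wfdc10 UMI, in the high-scoring WTg cells (red), other WTg cells (orange) and EL1 cells (blue). Chromosomes 1, 3, 11 and X stand at 0.29, 0.29, 0.29 and 0.45 in the high-scoring cells.

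Per cell, chromosome X took a median of 4.28% of UMIs (2.35% to 6.17%) in the 49 cells with Wfdc10, 3.24% (2.04% to 5.22%) in the 51 without and 2.95% in the other WTg cells. The value exceeded by 5% of the other WTg cells, 4.46%, was passed by 21 of the 49 and by 1 of the 51. The cells with Wfdc10 overlap those without, but the highest values were nearly all theirs. Over the 100 cells the X share followed the shares of chromosomes 1 (r 0.62), 3 (0.67) and 11 (0.69), and not those of 2 (0.03) or 5 (-0.24).

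The pattern went with the smaller cluster. Its 25 high-scoring cells had medians of 6.65%, 5.72%, 12.7% and 5.08% for chromosomes 1, 3, 11 and X, against 4.62%, 4.04%, 8.89% and 3.40% in the 48 of the larger one. The 26 cells of the smaller cluster outside the 100 lay between on chromosomes 1, 3 and 11, at 5.36%, 4.84% and 10.4%, and below both on X, at 3.29%. Relative to the Sycn and Dmbt1 cells, all 100 cells together had higher medians on chromosomes X (0.31) and 5 (0.28), and a lower one on 2 (-0.21).

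Y-linked genes were found in fewer of the 100 cells than of the other WTg cells. A UMI of Ddx3y, Uty, Eif2s3y or Kdm5d was found in 39 of the 100 cells (39.0%, 29.4 to 49.3), in 443 of 648 other WTg cells (68.4%, 64.6 to 71.9) and in 72 of the 100 Sycn and Dmbt1 cells (72.0%, 62.1 to 80.5), at median depths of 34941, 39814 and 43447 UMIs. With Wfdc10 such a UMI was found in 17 of 49 (34.7%, 21.7 to 49.6) and without it in 22 of 51 (43.1%, 29.3 to 57.8). These intervals overlap, and the sums were 59.0 and 116 CPM, against 145 in the other WTg cells. In EL1 197 of 975 cells had one (20.2%, 17.7 to 22.9), at a median depth of 30009 UMIs. Xist, the RNA of the inactive X chromosome, had 1 UMI in the 100 cells and 2 in the other WTg cells. DNA was not measured, and the number of chromosome copies was not tested.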

How the data were processed

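The authors deposited raw UMI counts for every gene in each barcode, made with Cell Ranger (6.0.2 in the file header), and a second table with the counts of fewer barcodes. The submitters' processing notes name GRCm38, R 4.1 and Seurat 4.0.5. Use of strand in counting is not given in the sources used here. Tumours were digested with collagenase, red cells lysed and 7AAD used for viability. The WTg and EL1 matrices held 1488 and 1621 barcodes with 34871992 and 39171674 UMIs. After the filter 748 and 975 cells remained, in which a count of 0 over the 100 WTg cells allows 0.761 CPM.

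UMIs were summed over cells and scaled to CPM. Intervals were exact Poisson for sums, exact binomial for ratios and Clopper-Pearson for shares. Sums at 0 were set to 3 counts for ratios. Scripts were tested on simulated data, where a first limit on the size of single errors was narrowly missed and was replaced by interval coverage and median bias, which were met. Clusters came from Leiden (resolution 1, 2000 variable genes, 30 components, 15 neighbours) and doublets from Scrublet (both in scanpy 1.11.5), and the called cells were kept. TMM factors came from edgeR 4.0.16. Gene symbols used more than once were left out. Gene positions were from GENCODE M21.

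Members and lists were chosen with earlier results of these data known. Named genes were the score genes, Mettl3, Plk1, the 12 highest and 12 lowest ratios outside predicted genes with one direction under every scaling, 2 highest and 2 lowest of each list and 5 that follow the score. Others, among them those named for the Wfdc10 split, Klk1 and the Y-linked genes, were chosen after their values were seen, as were the Wfdc10 split and the view by chromosome (9 comparisons of 20 chromosomes). Some genes that the rule names are not reported here.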

Additional observations from a re-analysis of the deposited data

Results flagged for a closer look

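Between the 2 libraries, 3 named genes passed 2-fold in opposite directions, and the difference was not tested. Each ratio is that of the 100 highest-scoring cells over the other cells of their library. The EL1 100 had a median score of 0.495, against 1.43 in the WTg 100, so cells unlike in score are set side by side. Pnliprp2 had a log2 ratio of -1.53 (-1.70 to -1.37) in WTg and 3.14 (2.94 to 3.34) in EL1. Reg2 had 1.95 (1.76 to 2.13) in WTg and -5.17 (-10.48 to -2.68) in EL1, where the 100 cells held 1 UMI. Serpina7 had 2.89 (2.35 to 3.43) in WTg and -1.15 (-1.83 to -0.54) in EL1.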

How the results depend on the processing

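Of the 100 cells, 85 to 100 were kept under other filters and scores. The count of genes at least 2-fold higher, 133, became 240 with enzyme and granule genes out of the totals, 260 with TMM scaling, 245 with a minimum of 20 UMIs per gene and 29 with 1000. The count lower, 1589, became 991, 939, 2438 and 252. The 8 enzyme genes higher became 13 with TMM scaling. The 35 G2/M genes lower became 16 without Cela3b in the score, 21 without Aqp12, 22 with enzyme and granule genes out of the totals, 22 with TMM scaling and 13 with a minimum of 1000 UMIs, where fewer genes were tested. The cause of the others was not tested. Of 94 values of these 5 results 80 stayed within 1.5 times. Of 462 ratios of the 12 highest and 12 lowest genes, which were chosen for one direction under every scaling, 37 moved beyond their counting interval and none changed sign. Signs of genes near 0 that turned with the scaling are given beside them. Leaving out leukocyte-marker barcodes was chosen after seeing the data. Few UMIs limit Plk1, Pnlip and Ptgds. No paired analysis was possible because the labels give 1 library for each genotype.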

Other observations

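In the Wfdc10 split of the high-scoring cells, genes of ER translocation and folding lay together on one side. Of 34 tested, 31 had a log2 ratio above 0 in cells with Wfdc10 (91.2%, against 63.0% of all genes tested), with a list median of 0.37 against 0.10 for all genes, and none passed 2-fold. The immediate early list had 4 of 16 at least 2-fold higher (1.82% of all genes) and none lower, and the zymogen proteases 3 of 17 lower (0.831% of all genes) and none higher.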
